A study of Mus musculus with 16 samples.

Results

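The T cell attracting CXC chemokines described here are the ligands of the receptors CXCR3 and CXCR6, namely Cxcl9, Cxcl10 and Cxcl11 for CXCR3 and Cxcl16 for CXCR6. They were chosen by name, and 3 of the 4 listed genes have a row among the 31053 features of the deposited matrices, whereas Cxcl11 has none and was not analysed here. Live CD45+ cells were sorted from subcutaneous tumors of C57BL/6J mice and profiled by droplet single-cell RNA sequencing of transcript 3′ ends. The 16 libraries form 4 groups of 4, untreated MC38, irradiated MC38, untreated Panc02-SIY and irradiated Panc02-SIY. The MC38 line derives from a colorectal carcinoma. Panc02-SIY cells, from a pancreatic adenocarcinoma, carry SIY as a model antigen. Irradiated tumors received a single CT-guided dose of 12 Gy and were harvested 24 h later. The labels give 4 animals per group while the methods state 3. With 3 animals, libraries of a group would share an animal, which was not tested. The p-values measure the spread between these libraries.

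The libraries held 28678 cell barcodes. Among the 9843 barcodes of the MC38 libraries there were 2632 distinct sequences, and 769 of them occurred in all 8 libraries. For any pairing of MC38 libraries, the overlap had a median of 83.3% of the smaller library's barcodes. Among the 18835 barcodes of the Panc02-SIY libraries 18136 were distinct. Each barcode was kept only in the library of the same tumor line where it had the most unique molecular identifiers (UMIs), which left 20768 barcodes and between 1385711 and 43708746 UMIs per library. Removal took between 13.6 and 57.2% of the UMIs of an MC38 library, with the highest share in irradiated MC38 replicate 1, and at most 0.975% of a Panc02-SIY library. How the MC38 barcodes came to be shared was not tested. The MC38 libraries may hold molecules of one another, so the treatment assigned to an MC38 barcode and the independence of the MC38 libraries are in doubt in each MC38 comparison, also after this step. Each comparison below was repeated with all deposited barcodes. In that setting a barcode counted in every library that held it, so MC38 libraries share barcodes while their p-values treat them as independent. For levels of the ligands, Cxcr3, Cxcr6 and Ifng the values are given where a call changed. For class shares the count of tests that passed is given.

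CXCL9, CXCL10 and CXCL11 are small secreted chemokines that draw activated T cells and NK cells through CXCR3, and interferons, interferon gamma above all, induce them in myeloid, stromal and tumor cells. CXCL16 is made as a membrane protein with a chemokine head, which ADAM10 and ADAM17 can shed, and it binds CXCR6 on tissue-resident and effector T cells. Macrophages and dendritic cells are well-known producers of these ligands in tumors.

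In the GENCODE M21 annotation of mm10 (GRCm38) the CXCR3 ligand genes lie together on the minus strand of chromosome 5. Cxcl9 (ENSMUSG00000029417) spans chr5:92321347-92328079, Cxcl10 (ENSMUSG00000034855) spans chr5:92346638-92348889 and Cxcl11 (ENSMUSG00000060183), annotated as a polymorphic pseudogene, spans chr5:92359544-92365485. Cxcl16 (ENSMUSG00000018920) lies apart on the minus strand of chromosome 11 at chr11:70453983-70459984. The 250 bases before the start of Cxcl9 (chr5:92328080-92328329) and of Cxcl10 (chr5:92348890-92349139), from RefSeq on GRCm38.p6, are printed 5′ to 3′ on the gene's strand because the results below turn on these neighboring genes. Windows matched for 2 of the 4 genes, Cxcl9 and Cxcl10. Capitals mark every match to 4 motifs searched on both strands. The first is GAAA, any 2 bases, then GAAAC (interferon-stimulated response element, ISRE, type). Then come GGGA and TTCC with any 2 bases or any 1 base between them (the longer and the shorter NF-kB type). The last is TTC, any 3 bases, then GAA (gamma-activated site, GAS, type). None of the matches overlap.
Cxcl9: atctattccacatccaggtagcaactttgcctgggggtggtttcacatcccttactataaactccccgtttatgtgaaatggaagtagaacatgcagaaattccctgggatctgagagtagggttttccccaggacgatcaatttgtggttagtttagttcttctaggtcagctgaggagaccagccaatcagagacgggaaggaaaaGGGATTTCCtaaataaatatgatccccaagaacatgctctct
Cxcl10: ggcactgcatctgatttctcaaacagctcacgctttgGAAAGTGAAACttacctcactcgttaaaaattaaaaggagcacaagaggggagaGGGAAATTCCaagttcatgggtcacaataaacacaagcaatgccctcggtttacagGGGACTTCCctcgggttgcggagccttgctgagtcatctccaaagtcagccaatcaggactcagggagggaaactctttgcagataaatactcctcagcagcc
The Cxcl10 window held the ISRE-type motif at 213 to 203 bases before the start, a motif found in 0.682% of 32536 windows of the same length. It also held the longer NF-kB-type motif at 159 to 150 bases, found in 1.21% of windows, and the shorter at 103 to 95 bases, found in 1.44% of windows. The Cxcl9 window held only the shorter NF-kB-type motif, at 42 to 34 bases before the start. The GAS-type motif, found in 7.04% of windows, was in neither. These are matches of letters and describe the windows, not binding. The motif letters were chosen after the windows were read, so the shares of windows do not measure how unusual the matches are.

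Over all CD45+ barcodes, Cxcl10 and, close to the threshold, Cxcl16 rose 24 h after irradiation of Panc02-SIY tumors. No measured ligand passed the test after irradiation of MC38 tumors, while all 3 were higher in untreated MC38 than in untreated Panc02-SIY tumors. Levels are CPM, the UMIs of the gene in a set of barcodes scaled to the same total of UMIs in every library, and a gene passed where its adjusted p in edgeR's quasi-likelihood test was below 0.1 and its fold change above 1.3. Cxcl10, the ligand named for its induction by interferon gamma, stood at 61.8, 142, 188 and 237 CPM in untreated Panc02-SIY replicates 1 to 4. It stood at 542, 356, 315 and 563 CPM in the irradiated Panc02-SIY replicates. Every irradiated Panc02-SIY library was above every untreated one. The log2 fold change was 1.41 (SE 0.32, adjusted p = 0.0094, 2.66-fold), in a comparison in which 14.7% of 12447 genes passed. It stayed past the threshold in all 26 alternative settings tried, between 1.08 and 1.77 on the log2 scale.

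Cxcl16 measured 55.7, 79.0, 62.2 and 75.4 CPM in untreated and 57.4, 102, 121 and 154 CPM in irradiated Panc02-SIY libraries. Irradiated Panc02-SIY replicate 1 lay inside the untreated range and the other 3 above it. Its rise of 0.60 on the log2 scale (SE 0.23, adjusted p = 0.093) was close to the threshold and passed in 10 of 26 alternatives. Without irradiated Panc02-SIY replicate 4 it was 0.44 (adjusted p = 0.16). Cxcl9 measured 94.8, 486, 328 and 519 CPM in untreated and 481, 548, 708 and 1137 CPM in irradiated Panc02-SIY libraries. The groups overlapped, and the log2 fold change of 0.93 (SE 0.57, adjusted p = 0.32) did not pass in any setting.

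In MC38 tumors the levels over all barcodes were high in both groups. Cxcl10 measured 959, 1176, 1110 and 1049 CPM in untreated and 1708, 1394, 1267 and 1004 CPM in irradiated MC38 libraries. The first 3 irradiated libraries lay above all untreated ones and replicate 4 among them, with a log2 fold change of 0.41 (SE 0.31, adjusted p = 0.46) where 11.7% of genes passed. Fitted on the MC38 libraries alone, without the groups of the other tumor, the change was 0.39 and its adjusted p was 0.061, which passed. Cxcl9 ranged widely, at 695, 1659, 292 and 1170 CPM untreated and 1180, 1531, 549 and 571 CPM irradiated, with a log2 fold change of 0.10 (SE 0.57, adjusted p = 0.96). Cxcl16 stood at 570, 658, 670 and 774 CPM untreated and 740, 884, 667 and 704 CPM irradiated, with a log2 fold change of 0.26 (SE 0.23, adjusted p = 0.53). Both genes overlapped between the groups.

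The radiation effects of the 2 tumors were not shown to differ. The difference of effects was −1.0 on the log2 scale for Cxcl10 (SE 0.44, adjusted p = 0.39), −0.83 for Cxcl9 (adjusted p = 0.76) and −0.34 for Cxcl16 (adjusted p = 0.75), and 0.345% of all genes passed this test. Between untreated tumors, MC38 was higher by 2.96 for Cxcl10 (SE 0.34, 7.76-fold), 3.49 for Cxcl16 (SE 0.25, 11.2-fold) and 1.60 for Cxcl9 (SE 0.58, adjusted p = 0.026). With each barcode thinned to 1000 UMIs the Cxcl9 difference was 0.99 and did not pass (adjusted p = 0.17). In irradiated tumors the differences were 1.96 for Cxcl10 and 3.15 for Cxcl16, which passed, and 0.77 for Cxcl9 (adjusted p = 0.26), which did not. These tumor comparisons passed for 61.1 and 58.5% of all genes, so a called difference between the lines is common.

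**Figure D1:**
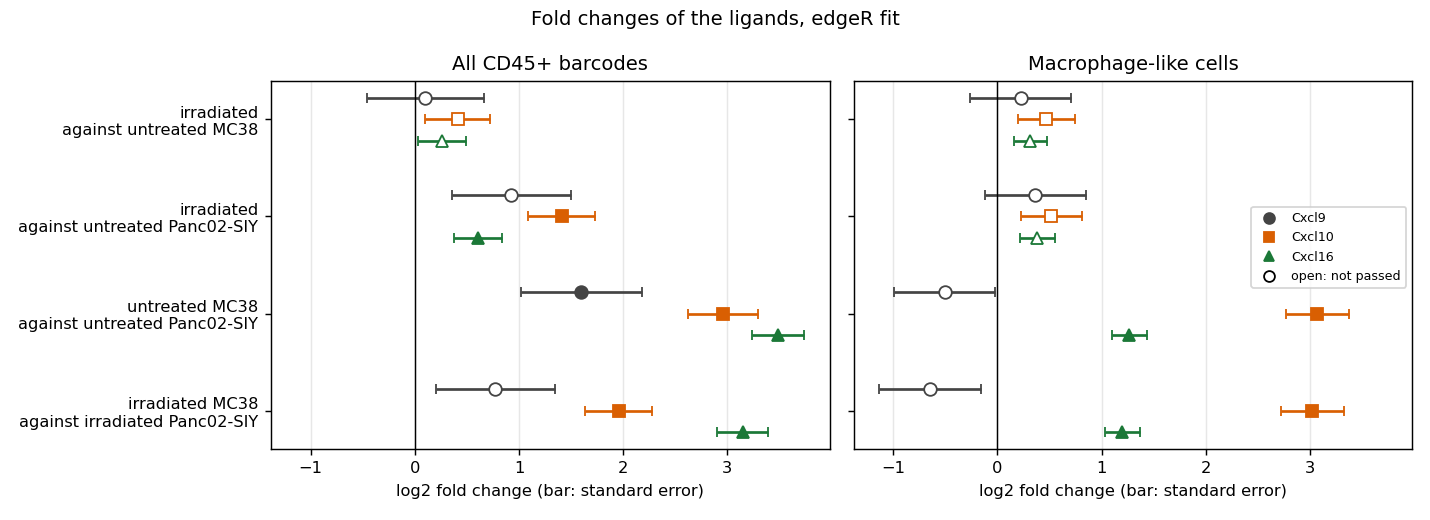
Log2 fold changes (horizontal axis) of Cxcl9, Cxcl10 and Cxcl16 in 4 comparisons, over all CD45+ barcodes (left) and in macrophage-like cells (right). Points are edgeR estimates, bars are standard errors and filled points passed the test; only Cxcl10 and Cxcl16 over all barcodes of Panc02-SIY tumors are filled among the radiation comparisons.

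The level over all barcodes depends on which cells were sorted, and fewer cells of a class and less RNA per cell cannot be told apart in such a sum. Barcodes were therefore clustered without the ligands, their receptors and Ifng, and the 27 clusters were named from marker lists. Macrophage-like cells made up on average 63.0% of untreated and 59.7% of irradiated MC38 barcodes, against 19.1 and 14.1% in Panc02-SIY, where T cell-like cells were the largest class at 42.6 and 34.8%. The gene of CD45, Ptprc, was lowest in tumor or stromal cell-like clusters, led by Col1a1, Col1a2 and Sparc or by Mgp, Nfib and Cp, which goes against a sort on CD45. Their Ptprc level was between 0 and 216 CPM against between 345 and 1439 CPM in macrophage-like cells, and they held 10.0 and 7.17% of MC38 and 2.94 and 2.06% of Panc02-SIY barcodes. With all deposited barcodes their share was lower in MC38 than in Panc02-SIY, as given in the last section. Leaving the tumor or stromal cell-like and the unnamed clusters out gave a Cxcl10 rise of 1.77 in Panc02-SIY, and the Cxcl16 rise no longer passed (0.57, adjusted p = 0.12).

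In MC38 tumors macrophage-like cells held most ligand UMIs. Their mean share was 92.7% untreated and 91.4% irradiated for Cxcl9, 88.7 and 85.7% for Cxcl10, and 93.7 and 91.7% for Cxcl16. The lowest shares were 69.4% of Cxcl10 UMIs in irradiated MC38 replicate 3, where monocyte-like cells held 24.0%, and 76.8% in untreated MC38 replicate 2, where they held 22.1%. In Panc02-SIY tumors the sources differed between the genes. Macrophage-like cells held 62.0 ± 13.4% (SD, n = 4) of Cxcl9 UMIs in untreated and 41.6 ± 10.6% in irradiated tumors, and 63.2 and 58.4% of Cxcl16 UMIs. Of Cxcl10 UMIs they held only 12.6 and 7.04%.

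Most of the Cxcl10 UMIs of irradiated Panc02-SIY tumors lay instead in monocyte-like and neutrophil-like cells. Monocyte-like cells held 47.3 ± 2.68% of them, against 13.8 ± 14.6% in untreated tumors, and neutrophil-like cells held 21.9 and 22.2%. Tumor or stromal cell-like cells held 23.4% in untreated tumors, a mean that rests on untreated Panc02-SIY replicate 4 with 66.3%.

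**Figure D2:**
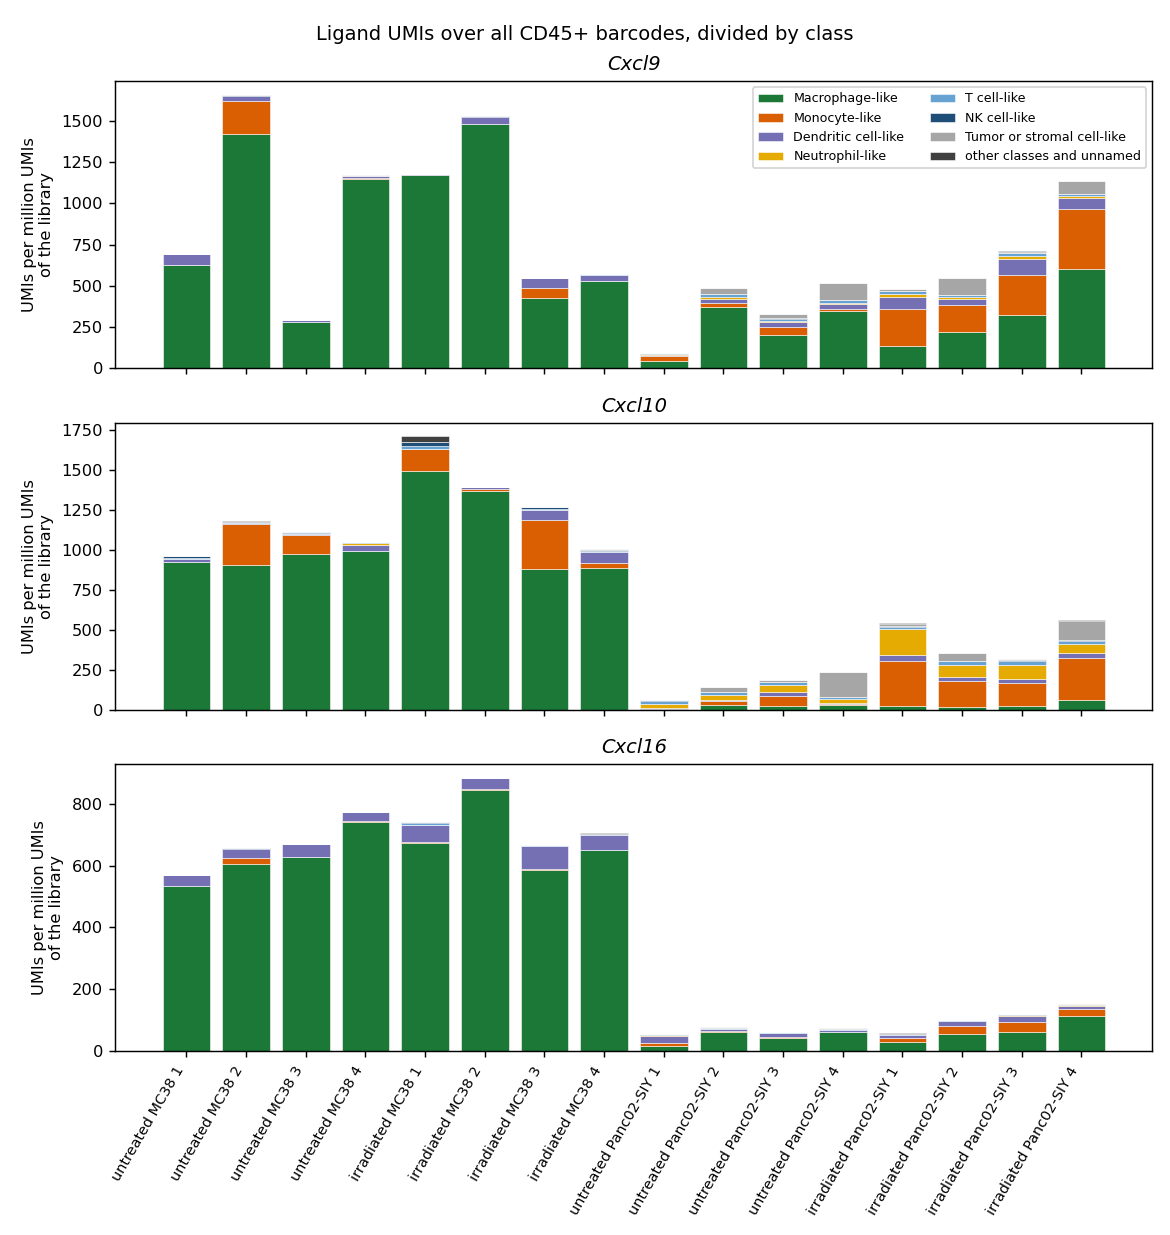
UMIs of each ligand as CPM of the library (vertical axis, from 0) in the 16 libraries, stacked by the class of barcode they came from. Macrophage-like cells fill most of each MC38 bar, while in irradiated Panc02-SIY bars monocyte-like and neutrophil-like cells carry most of Cxcl10.

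Within macrophage-like cells, Cxcl10 and Cxcl16 were higher in MC38 than in Panc02-SIY tumors before and after irradiation, and none of the 3 ligands passed the test for radiation in either tumor. Cxcl10 in macrophage-like cells stood at 1106, 1082, 1117 and 1086 CPM in untreated MC38 and at 1940, 1553, 1126 and 1043 CPM in irradiated MC38 libraries. It stood at 56.4, 194, 187 and 99.7 CPM in untreated and at 257, 136, 200 and 228 CPM in irradiated Panc02-SIY libraries. The lowest MC38 library was above the highest Panc02-SIY library, and within each tumor the treatment groups overlapped. The difference between untreated tumors was 3.07 on the log2 scale (SE 0.30, adjusted p = 2.3e-06, 8.41-fold) and between irradiated tumors 3.02 (SE 0.30, adjusted p = 2.3e-06, 8.13-fold).

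Cxcl16 in macrophage-like cells ran from 640 to 813 CPM in untreated and from 751 to 960 CPM in irradiated MC38 libraries. In Panc02-SIY it measured 447, 370, 327 and 217 CPM untreated and 331, 470, 497 and 408 CPM irradiated. The tumors again did not overlap, with differences of 1.27 (SE 0.17, adjusted p = 6.8e-06, 2.40-fold) in untreated and 1.2 (SE 0.17, adjusted p = 9.9e-06, 2.30-fold) in irradiated tumors. These 4 differences of Cxcl10 and Cxcl16 passed in all 27 alternative settings, the smallest being 2.14 for Cxcl10 and 0.66 for Cxcl16.

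Cxcl9 in macrophage-like cells did not follow this order. It stood at 754, 1703, 325 and 1259 CPM in untreated and at 1526, 1685, 542 and 621 CPM in irradiated MC38 libraries. In Panc02-SIY it stood at 1185, 2238, 1579 and 1238 CPM untreated and at 1413, 1861, 2582 and 2176 CPM irradiated. The tumors overlapped, with differences of −0.51 (SE 0.49, adjusted p = 0.42) in untreated and −0.65 (SE 0.49, adjusted p = 0.29) in irradiated tumors. With each barcode thinned to 1000 UMIs Cxcl9 passed as lower in MC38, at −0.91 (adjusted p = 0.077) untreated and −1.46 (adjusted p = 0.0099) irradiated, and with all deposited barcodes the irradiated difference was −0.81 (adjusted p = 0.074). Over all barcodes, as given above, the same gene was higher in untreated MC38. In this class 49.1 and 51.5% of 10356 genes passed between untreated and between irradiated tumors.

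The radiation changes in macrophage-like cells were all positive, and none passed. In MC38 they were 0.22 (SE 0.49) for Cxcl9, 0.47 (SE 0.27) for Cxcl10 and 0.32 (SE 0.16) for Cxcl16, with adjusted p between 0.23 and 0.84. In Panc02-SIY they were 0.36 (SE 0.49), 0.52 (SE 0.30) and 0.38 (SE 0.17), with adjusted p between 0.21 and 0.76. Radiation changed 14.2% of genes in MC38 and 8.67% in Panc02-SIY macrophage-like cells by the same test. Without untreated Panc02-SIY replicate 1, whose macrophage-like cells had the highest Cxcl16 of that group, the Cxcl16 change in Panc02-SIY was 0.53 and passed (adjusted p = 0.052). None of the 3 genes passed for a difference of the radiation effect, for which 0.126% of genes passed.

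Different clusters made up the macrophage class of the 2 tumors. Clusters led by Apoe, Lyz2 and Arg1, by Apoe and Fn1, and by Apoe, Lyz2 and Retnla held the MC38 cells, and clusters led by C1qc, C1qb and C1qa held most of the Panc02-SIY cells. The summed level of the 11 macrophage markers was between 21824 and 27837 CPM in MC38 and between 14282 and 18525 CPM in Panc02-SIY macrophage-like cells. Among barcodes of this class with at least 1000 UMIs, median UMIs were 21867 and 19235 in untreated and irradiated MC38 and 4389 and 9827 in Panc02-SIY. Barcodes with fewer UMIs are not in these medians. In the Apoe, Lyz2 and Arg1 cluster, 1027 MC38 and 55 Panc02-SIY barcodes had Cxcl10 at 1164 and 158 CPM. Cxcl16 was at 786 and 335 CPM there, and Cxcl9 at 958 and 158 CPM. In the Apoe and Fn1 cluster, with 442 and 109 barcodes, Cxcl10 was at 1019 and 476 CPM. Cxcl16 was at 544 and 76.5 CPM there, and Cxcl9 at 388 and 238 CPM. These levels pool libraries and were not tested. Tumor line, cluster make-up and depth cannot be told apart in the differences of the whole class.

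**Figure D3:**
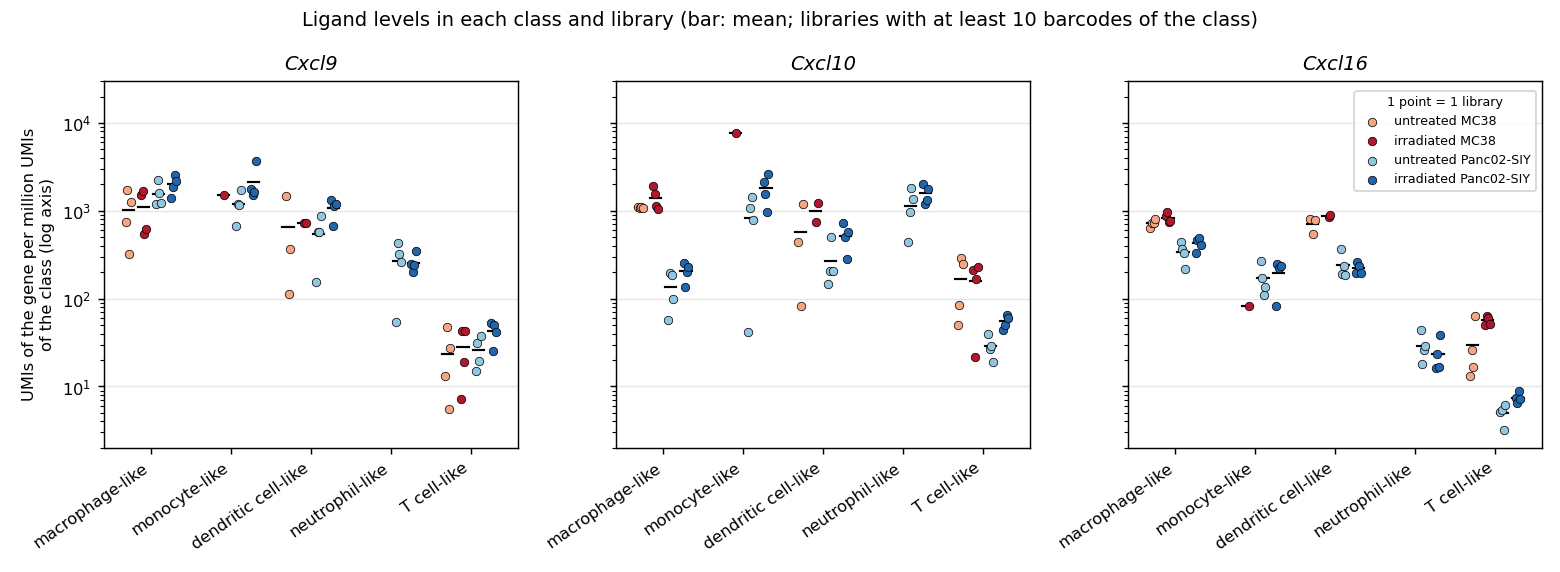
Level of each ligand in 5 classes, as CPM of the class (vertical log axis), 1 point per library with at least 10 barcodes of the class and a bar at the group mean. In macrophage-like cells MC38 libraries stand above Panc02-SIY libraries for Cxcl10 and Cxcl16 but not for Cxcl9.

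Counting cells rather than UMIs, with each barcode thinned to 1000 UMIs, gave the same order for Cxcl10 and Cxcl16 and set the tumors apart for Cxcl9. Cxcl10 was detected in 22.2 to 37.7% of macrophage-like barcodes in MC38 libraries and in 5.0 to 16% in Panc02-SIY libraries. Cxcl16 was detected in 43.8 to 53.0% and in 16.2 to 39.0%, and Cxcl9 in 10.6 to 42.1% and in 43.3 to 64.6%. No MC38 library overlapped a Panc02-SIY library for any of the 3 genes, with Cxcl9 being detected in fewer and Cxcl10 and Cxcl16 in more MC38 cells. Each of these 6 tumor comparisons had p = 0.0286 by the exact two-sided permutation test, the smallest that 4 against 4 libraries allow, and an adjusted p of 0.10 over 21 tests, which is not below 0.1. Without thinning and with thinning to 500 UMIs, 8 of the tests passed.

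For comparison, the share of T cell-like barcodes with a UMI was counted, and how much of it is background was not tested. For Cxcl10 it was 18.7% in untreated and 14.9% in irradiated MC38 and, in Panc02-SIY, 1.86 and 2.95%. Median depths of these barcodes, all with at least 1000 UMIs, were 2576, 2617, 8254 and 6073 UMIs. For Cxcl9 the MC38 shares were 5.22 and 5.17% and those of Panc02-SIY 2.68 and 3.37%. For Cxcl16 they were 6.72 and 5.17%, and 0.439 and 0.908%. The T cell-like barcodes of Panc02-SIY included a cluster of 145 with Cxcl9 at 413 CPM and Cxcl16 at 56.4 CPM. A T cell-like cluster of 3557 barcodes had 17.2 and 3.15 CPM. Every macrophage-like share lay above the share of T cell-like barcodes of its group.

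Ligand UMIs were concentrated in few macrophage-like cells, and less so for Cxcl16 than for the CXCR3 ligands in MC38. The 10% of macrophage-like barcodes with most ligand UMIs held a median of 78.4% of Cxcl9 UMIs in untreated and 77.8% in irradiated MC38 libraries, and 82.5 and 78.5% of Cxcl10 UMIs. It held 31.2 and 35.1% of Cxcl16 UMIs there. In Panc02-SIY it held 70.1 and 68.9% for Cxcl9, 94.2 and 91.6% for Cxcl10, and 62.7 and 53.8% for Cxcl16. These UMIs were counted without thinning, so deep barcodes weigh more. In Panc02-SIY 1 macrophage-like cluster held 3216134 UMIs in 1940 barcodes and another 19010481 UMIs in 1072 barcodes. The part of depth in the concentration was not tested. With thinned barcodes, Cxcl10 was found more often in macrophage-like barcodes with a Cxcl9 UMI than in those without in all 16 libraries. The median shares were 41.3 against 23.0% in untreated MC38, 36.8 against 30.4% in irradiated MC38, 12.6 against 3.66% in untreated Panc02-SIY and 13.3 against 5.03% in irradiated Panc02-SIY. The other pairs often went the same way. Cxcl16 was found more often with a Cxcl9 UMI in 2 of 4 untreated and 4 of 4 irradiated MC38 libraries. In Panc02-SIY this held in 4 of 4 untreated and 4 of 4 irradiated libraries. Cxcl16 was found more often with a Cxcl10 UMI in 4 of 4 untreated and 3 of 4 irradiated MC38 libraries. In Panc02-SIY this held in 3 of 3 untreated and 2 of 4 irradiated libraries.

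The monocyte-like cluster was led by Lyz2, Chil3, Retnla, Plac8, Ifitm6, Ccl24, F13a1, Ccr2, Cxcl10 and Ms4a6c. All 8 monocyte markers and 4 of the 11 macrophage markers were raised in it. Monocyte-like cells were a larger share of barcodes after irradiation of Panc02-SIY tumors and carried high Cxcl10. They made up 1.86 ± 1.10% of untreated and 6.44 ± 1.39% of irradiated Panc02-SIY barcodes, with no overlap between the groups (exact permutation p = 0.0286, adjusted p = 0.094 over 36 tests). Of those tests 11 passed, 18 with all deposited barcodes, and 0 without any of 6 single libraries. Among untreated libraries these were Panc02-SIY replicates 1, 2 and 3, and among irradiated ones Panc02-SIY replicates 1 and 3 and MC38 replicate 3. Cxcl10 in monocyte-like cells measured 42.0, 1074, 1432 and 784 CPM in untreated and 2149, 1539, 976 and 2631 CPM in irradiated Panc02-SIY libraries, from 23 to 55 and from 59 to 217 barcodes. It was above the macrophage-like level in 7 of 8 Panc02-SIY libraries, untreated replicate 1 being the exception.

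Cxcl9 in monocyte-like cells measured 672, 1207, 1164 and 1739 CPM in untreated and 1753, 1532, 1632 and 3674 CPM in irradiated Panc02-SIY libraries. Cxcl16 measured 266, 173, 110 and 135 CPM untreated and 83.4, 245, 221 and 234 CPM irradiated, below the macrophage-like level in 8 of 8 libraries. Within monocyte-like cells no radiation change passed, at 1.07 (SE 0.84, adjusted p = 0.80) for Cxcl10, 0.79 (SE 0.43, adjusted p = 0.71) for Cxcl9 and 0.22 (SE 0.37, adjusted p = 0.92) for Cxcl16. No gene passed in this comparison, so the background is 0% of 7441 genes, of which 586 had an unadjusted p below 0.05, and the count stayed at 0 for the ligands under DESeq2.

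The rise of Cxcl10 over all Panc02-SIY barcodes can be split, as a description, by class. The mean level went from 157 to 444 CPM, of which 131 CPM came from a larger share of UMIs in the classes that carry it and 156 CPM from higher levels within classes. Monocyte-like cells gave 117 CPM of the former and 71.5 CPM of the latter, and neutrophil-like cells 36.6 and 26.9 CPM. For Cxcl9, whose change did not pass, the mean went from 357 to 719 CPM, and monocyte-like cells gave 141 CPM by their share and 77.4 CPM by their level, while macrophage-like cells gave 3.35 and 76.7 CPM.

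In MC38 only irradiated MC38 replicate 3 had at least 10 monocyte-like barcodes, with 7610 CPM of Cxcl10 and 1516 CPM of Cxcl9 in 13 barcodes. With all deposited barcodes Cxcl10 in monocyte-like cells passed as higher in MC38, by 3.20 (adjusted p = 0.015) in untreated and 1.90 (adjusted p = 0.067) in irradiated tumors. There a barcode counted in every MC38 library that held it, with the class of its richest copy. These p-values thus treat libraries that share barcodes as independent.

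Neutrophil-like cells, in 2 clusters led by S100a8 or S100a9 and 1 led by Retnlg, Adamdec1 and Ccr3, carried Cxcl10 unevenly and little Cxcl16. Pooled over Panc02-SIY libraries, Cxcl10 was at 1593 and 447 CPM in the S100a8 clusters of 1460 and 294 barcodes. It was at 122 CPM in the Retnlg cluster of 145 barcodes. Cxcl16 was at 24.3, 26.4 and 68.9 CPM in the same order. Whether the Retnlg cluster holds neutrophils alone was not tested. In Panc02-SIY, Cxcl10 in this class measured 437, 964, 1825 and 1352 CPM untreated and 2028, 1197, 1331 and 1771 CPM irradiated, above the macrophage-like level in 8 of 8 libraries. Cxcl9 measured between 53.8 and 431 CPM and Cxcl16 between 16.4 and 43.7 CPM, each below the macrophage-like level in 8 of 8 libraries. No ligand passed for radiation, with log2 changes of 0.47 for Cxcl10, −0.06 for Cxcl9 and −0.22 for Cxcl16, where 0.0564% of genes passed. MC38 libraries had too few neutrophil-like barcodes for a level.

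Among dendritic cells of Panc02-SIY tumors Cxcl10 was highest in 1 subset and Cxcl16 in another, while Cxcl9 was found in more than 1. Conventional type 1 dendritic cells (DC1), which cross-present antigen to CD8+ T cells, carried Cxcl9 at 251, 661, 694 and 880 CPM untreated and 1101, 14.3, 1391 and 827 CPM irradiated. Their Cxcl10 was between 0 and 96.1 CPM, at 0 in untreated replicates 1 and 3, where 0 UMIs allow up to 37.7 and 17.8 CPM. Type 2 dendritic cells (DC2), which mainly prime CD4+ T cells, carried Cxcl10 at 315, 1765, 1637 and 1453 CPM untreated and 1280, 592, 486 and 1560 CPM irradiated. Cxcl9 in DC2 was 277, 511, 1073 and 1697 CPM untreated and 1981, 542, 1229 and 2459 CPM irradiated, above DC1 in 6 of 8 Panc02-SIY libraries. Cxcl10 was higher in DC2 than in DC1 and higher in DC2 than in macrophage-like cells in 8 of 8 Panc02-SIY libraries.

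Mature regulatory dendritic cells (mregDC), marked by Ccr7, Fscn1 and Ccl22, carried the highest Cxcl16 of the 3 subsets. In Panc02-SIY it measured 794, 650 and 603 CPM in untreated and 701, 635 and 647 CPM in irradiated libraries with at least 5 such barcodes. Cxcl16 was higher in mregDC than in DC1, DC2 and macrophage-like cells in 6 of 6 Panc02-SIY libraries, and higher than in DC2 and macrophage-like cells in 2 of 2 MC38 libraries. The MC38 values were 949 and 1133 CPM. Cxcl9 in mregDC was below the macrophage-like level in all 8 of these libraries. The levels rest on 5 to 53 barcodes per library and subset.

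DC2 of MC38 tumors had more Cxcl16 than those of Panc02-SIY tumors. It measured 889, 477 and 799 CPM in untreated and 606, 961 and 799 CPM in irradiated MC38 libraries, against 124, 201, 110 and 77.4 CPM untreated and 94.3, 46.3, 179 and 123 CPM irradiated in Panc02-SIY. The tumors did not overlap, with differences of 2.73 (SE 0.36, adjusted p = 0.00013) and 3.03 (SE 0.33, adjusted p = 7.5e-06) where 15.4 and 18.6% of genes passed. The summed macrophage markers in DC2 were 735 to 1963 CPM in MC38 and 306 to 1090 CPM in Panc02-SIY, and their part in the difference was not tested. Over all dendritic cell-like barcodes Cxcl16 also passed between untreated tumors, by 1.63 (SE 0.22, adjusted p = 0.00016, 15.4% of genes).

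No ligand passed for radiation in dendritic cell-like cells of Panc02-SIY tumors. Cxcl9 stood at 154, 574, 571 and 873 CPM untreated and 1344, 663, 1146 and 1195 CPM irradiated, and Cxcl10 at 149, 205, 497 and 209 CPM untreated and 719, 507, 282 and 580 CPM irradiated. Of the irradiated libraries 3 lay above all untreated ones for each gene, and the log2 changes were 0.92 (SE 0.66, adjusted p = 0.64) and 0.93 (SE 0.66, adjusted p = 0.63), where 0.598% of genes passed. Without the filter on low counts both passed, with adjusted p of 0.00021 and 0.00037. Cxcl16 changed by −0.16 (SE 0.20, adjusted p = 0.82).

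**Figure D4:**
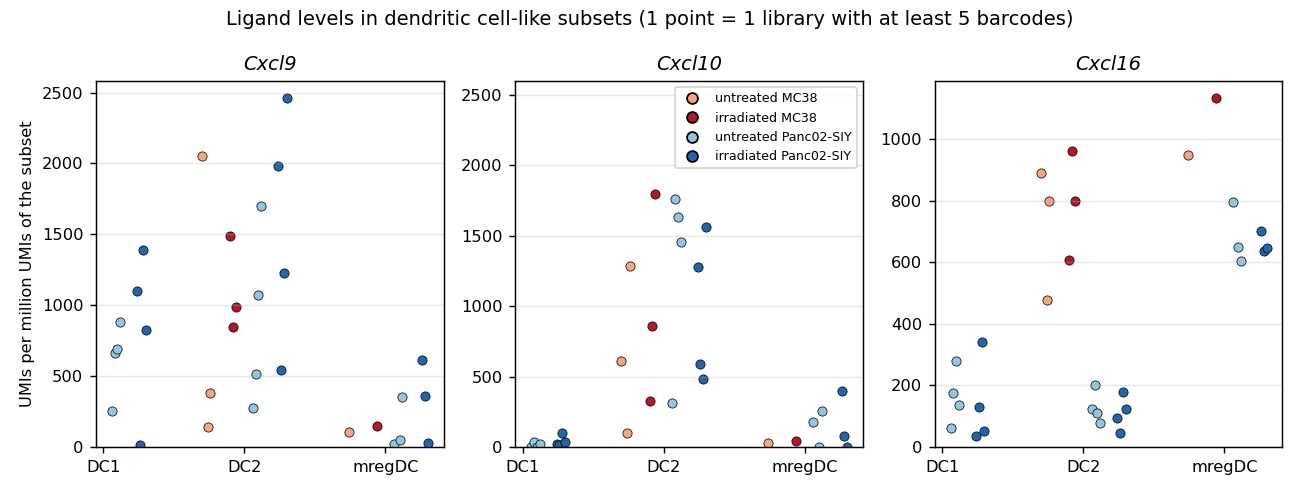
Level of each ligand in 3 dendritic cell-like subsets, as CPM of the subset (vertical axes, from 0), 1 point per library with at least 5 barcodes of the subset. Cxcl10 is highest in DC2, Cxcl16 is highest in mregDC in every library with that subset, and Cxcl16 in DC2 separates MC38 from Panc02-SIY.

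Lymphoid cells had low ligand levels, of which Cxcl10 and Cxcl16 passed as higher in MC38 than in Panc02-SIY tumors. Cxcl9, Cxcl10 and Cxcl16 were below the macrophage-like level in T cell-like and in NK cell-like cells of all 16 libraries. In T cell-like cells Cxcl16 measured 13.3, 26.2, 16.8 and 63.7 CPM in untreated and 49.9, 64.3, 60.8 and 51.8 CPM in irradiated MC38, against 3.20 to 6.22 and 6.41 to 8.82 CPM in Panc02-SIY. It passed as higher in MC38 by 2.47 untreated (adjusted p = 0.000415) and 2.87 irradiated (adjusted p = 8.2e-06), and Cxcl10 by 2.46 (adjusted p = 0.0053) and 1.73 (adjusted p = 0.027), where 14.9 and 15.1% of genes passed. Without irradiated MC38 replicate 4 the irradiated Cxcl10 difference was 1.46 and did not pass (adjusted p = 0.16). Cxcl10 overlapped between the irradiated tumors. Irradiated MC38 replicate 2, with 12 T cell-like barcodes, had 21.4 CPM, below the 43.7 to 65.1 CPM of irradiated Panc02-SIY libraries. The remaining irradiated MC38 values were 167, 214 and 231 CPM. In untreated libraries Cxcl10 ran from 49.8 to 291 CPM in MC38 and from 19.1 to 40.0 CPM in Panc02-SIY. Cxcl9 in T cell-like cells overlapped between the tumors, at 5.59 to 47.2 CPM in MC38 and 15.2 to 53.3 CPM in Panc02-SIY libraries. The Panc02-SIY values include a cluster of 145 barcodes with Cxcl9 at 413 CPM, given above. Markers of macrophages moved with these values. All 11 were detected in T cell-like cells of every group, and their summed level was 595 to 1548 CPM in MC38 and 163 to 377 CPM in Panc02-SIY libraries. No ligand passed for radiation in T cell-like cells, where 1.66% of genes passed in MC38 and 5.77% in Panc02-SIY. With all deposited barcodes Cxcl10 passed there in Panc02-SIY (0.93, adjusted p = 0.084), as it did without untreated MC38 replicate 1 (0.91, adjusted p = 0.098), and without untreated MC38 replicate 4 Cxcl16 passed there in MC38 (1.57, adjusted p = 0.085).

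In NK cell-like cells Cxcl10 was between 105 and 499 CPM in MC38 and between 10.5 and 78.7 CPM in Panc02-SIY libraries, and Cxcl16 between 11.4 and 53.4 CPM and between 0 and 6.92 CPM. Both separated the tumors, with differences of 2.87 (adjusted p = 0.027) and 2.62 (adjusted p = 0.019) for Cxcl10 and of 2.90 (adjusted p = 0.0038) and 3.26 (adjusted p = 0.00013) for Cxcl16 in untreated and irradiated tumors. Here 9.05 and 15.4% of genes passed. Without untreated MC38 replicate 1 the untreated Cxcl10 difference was 2.34 and did not pass (adjusted p = 0.21). Cxcl9 measured 22.8, 149.9, 0 and 38.7 CPM in untreated MC38, from 10 to 30 barcodes, and 4.07, 17.8, 18.2 and 18.0 CPM in untreated Panc02-SIY libraries. The groups overlapped, and 0 UMIs allow up to 53.1 CPM in untreated MC38 replicate 3. The difference passed at 1.63 (adjusted p = 0.066), but not without untreated MC38 replicate 2 (0.80, adjusted p = 0.50) or replicate 4 (1.64, adjusted p = 0.15). The summed macrophage markers were 583 to 1409 CPM in MC38 and 37.6 to 282 CPM in Panc02-SIY NK cell-like cells. The part of macrophage RNA in the T cell-like and NK cell-like levels was not tested.

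In tumor or stromal cell-like cells only Cxcl16 passed between the tumors, by 2.05 untreated (adjusted p = 0.011) and 2.36 irradiated (adjusted p = 0.0066), where 33.2 and 27.5% of genes passed. The summed macrophage markers were 1326 to 4437 CPM in MC38 and 111 to 595 CPM in Panc02-SIY.

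In the CD8 T cell subset of Panc02-SIY tumors Cxcl10 rose after irradiation. It measured 29.5, 18.0, 16 and 10.5 CPM untreated and 47.2, 36.5, 39.6 and 41.7 CPM irradiated, with no overlap. The change was 1.14 on the log2 scale (SE 0.23, adjusted p = 0.022) where 7.7% of genes passed, and with all deposited barcodes its adjusted p was 0.31. The summed macrophage markers were 51.4 to 100.4 CPM untreated and 56.1 to 97.7 CPM irradiated in this subset. Those of the 8 monocyte markers were 622 to 935 and 468 to 1119 CPM, and those of the 9 neutrophil markers 8.68 to 39.1 and 15.1 to 67.9 CPM, with all markers of the 3 lists detected in both groups. The monocyte marker Ly6c2 was among the leading genes of a T cell-like cluster, so the monocyte sum also counts a gene of T cell-like cells. The part of RNA from these classes in the Cxcl10 change was not tested.

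The receptors and the main inducer lay mostly in lymphoid cells, with Cxcr3 also found in DC1. Cxcr3 fell after irradiation in NK cell-like cells of Panc02-SIY tumors. Cxcr3 there measured 34.6 to 60 CPM untreated and 15.9 to 29.0 CPM irradiated, with no overlap. Its change was −0.85 (SE 0.22, adjusted p = 0.056) where 1.06% of genes passed. In DC1 of Panc02-SIY, from 9 to 53 barcodes, Cxcr3 measured 25.1 to 59.5 CPM untreated and 0 to 33.9 CPM irradiated. The DC1 groups overlapped, and 0 of 2460 genes passed for radiation in that subset. Over all Panc02-SIY barcodes Cxcr3 measured 54.6, 32.5, 32.8 and 28.2 CPM untreated and 30.5, 29.9, 26 and 17.1 CPM irradiated, and fell by 0.59 on the log2 scale (adjusted p = 0.063). With all deposited barcodes both falls passed as well. In Panc02-SIY the NK cell-like cluster led by Gzma, Klrb1c and Klra8 held 580 untreated and 1130 irradiated barcodes. The NK cell-like cluster led by Gzmc, Xcl1 and Car2 held 186 and 190. The mean share of T cell-like barcodes was 42.6% untreated and 34.8% irradiated. The part of cell make-up in the falls of Cxcr3 was not tested.

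In T cell-like cells none of Cxcr3, Cxcr6 and Ifng passed in any comparison, where 0% of genes passed for the difference of radiation effects and the other shares are given above. Ifng in this class had group means of 446 CPM in untreated MC38, 924 CPM in irradiated MC38, 444 CPM in untreated Panc02-SIY and 533 CPM in irradiated Panc02-SIY. The MC38 groups overlapped, at 79.8 to 876 CPM untreated and 629 to 1369 CPM irradiated. In NK cell-like cells Ifng ran from 70.8 to 290 CPM in untreated and 271 to 1015 CPM in irradiated MC38, from 10 to 42 barcodes. In Panc02-SIY it ran from 157 to 300 and from 211 to 507 CPM there. These groups overlapped in both tumors. With all deposited barcodes Cxcr3 passed as higher in T cell-like cells of irradiated MC38 than of irradiated Panc02-SIY, by 0.63 (adjusted p = 0.064). The MC38 libraries share barcodes in that setting, and the test treats them as independent.

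Over all barcodes Ifng, which encodes interferon gamma, stood at 13.3, 52.3, 6.68 and 23.3 CPM in untreated and at 184, 27.5, 57.1 and 52.6 CPM in irradiated MC38 libraries. It rose by 1.79 (SE 0.60, adjusted p = 0.080), and with all deposited barcodes it did not pass (1.07, adjusted p = 0.15). Cxcr3, Cxcr6 and Ifng were all lower in MC38 than in Panc02-SIY over all barcodes, by −2.24, −3.89 and −3.38 untreated and by −1.28, −3.02 and −1.55 irradiated, the reverse of the ligands. T cell-like cells were a smaller share of MC38 barcodes, as given above.

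**Figure D5:**
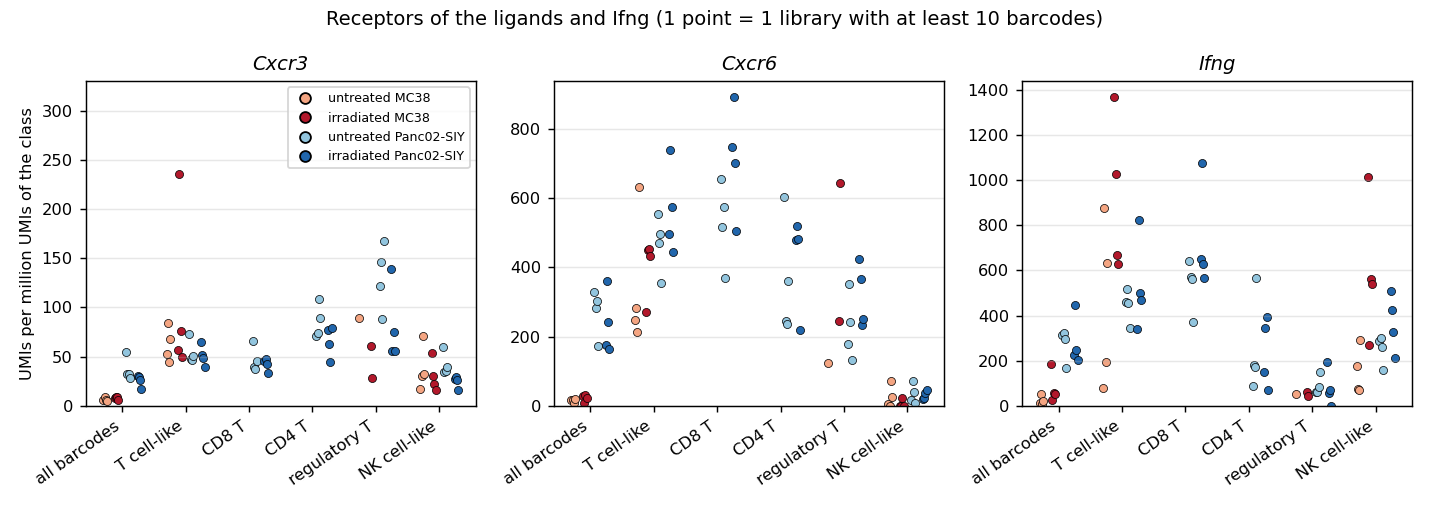
Levels of Cxcr3, Cxcr6 and Ifng, as CPM of the class (vertical axes, from 0), over all barcodes and in lymphoid classes, 1 point per library with at least 10 barcodes. Over all barcodes both receptors sit lower in MC38 than in Panc02-SIY libraries, while in T cell-like cells the tumors overlap.

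Across libraries, the Ifng level over all barcodes and the ligand levels in macrophage-like cells were compared within each tumor line (8 libraries each, 6 pairs). None of the 12 exact permutation tests passed after adjustment. The strongest relation was with Cxcl10 in MC38, with Pearson's r = 0.78 (permutation p = 0.073, adjusted p = 0.70) and Spearman's rho = 0.24 (permutation p = 0.58, adjusted p = 0.70). Without untreated MC38 replicate 3 and irradiated MC38 replicate 1 it was −0.29, so it rests on those libraries.

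Lists of genes around the ligands were counted in macrophage-like cells by the same test. The lists were chosen with earlier results of these data known, so their counts beside all genes are a description. In macrophage-like cells of irradiated MC38 tumors 7 of 21 measured interferon and TNF signaling genes rose and 0 fell, with a median log2 change of 0.38 against 0.02 over all genes, of which 7.67% rose and 6.51% fell. These included Jak2 (0.84), a kinase of the interferon gamma receptor, Tnfrsf1b (0.74), a TNF receptor, and Irf7 (0.71) and Stat2 (0.70), factors of the type I interferon response. In Panc02-SIY 3 of 21 rose and 0 fell, namely Tnfrsf1b (0.77), Ifnar1 (0.43) and Stat2 (0.40), with a median of 0.26, where 4.32% of all genes rose and 4.35% fell.

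Of 23 measured other targets of interferon gamma, 7 rose and 0 fell in irradiated MC38 macrophage-like cells, including Cd274 (1.28), which encodes PD-L1, Fcgr4 (1.08), an Fc receptor, Il18bp (1.07), which neutralizes interleukin 18, and the immunity-related GTPase Igtp (0.76). Their median was 0.59. In Panc02-SIY 0 of 23 passed, with a median of 0.19, and no gene of either list passed for a difference of the radiation effect. With all deposited barcodes 4 genes of each list rose in MC38 and 0 fell, while in Panc02-SIY 4 signaling genes rose, and 2 targets rose and 1 fell. In that setting 3.19% of all genes rose and 3.08% fell in MC38, and 5.69% rose and 5.26% fell in Panc02-SIY.

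Between untreated tumors the same targets went mostly against Cxcl10 in macrophage-like cells, with 12 lower and 3 higher in MC38 and a median of −0.54, where 25.2% of all genes were higher and 23.9% lower. Serpina3g (−2.20), Gbp4 (−2.16) and Irgm2 (−2.03) were lower, while Nos2 (4.45), the inducible nitric oxide synthase, was higher. In irradiated tumors 7 were lower and 5 higher, among them Cd40 (1.73), with a median of −0.18, where 26.1% of all genes were higher and 25.4% lower. Of the signaling genes 7 were higher and 7 lower in untreated and 10 higher and 7 lower in irradiated MC38. Irf7 was higher in MC38 by 1.86 and 2.27.

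Of the 6 measured receptors and partners, none passed for radiation in macrophage-like cells. Adam17, which encodes a protease that sheds CXCL16, was lower in MC38 by −0.83 untreated and −1.08 irradiated. Cxcr6 was lower too, by −3.53 and −2.98. Its median over the libraries of a tumor was 1.17 CPM in MC38 and 21.5 CPM in Panc02-SIY macrophage-like cells. In T cell-like cells the Cxcr6 medians were 358 and 496 CPM, and these cells were a smaller share of MC38 barcodes, as given above. The part of T cell RNA in the macrophage-like Cxcr6 levels was not tested. Pf4, the gene of another chemokine that can bind CXCR3, was higher by 2.14 in untreated MC38. Of 10 other CXC chemokines listed, 4 were measured in this class and none passed for radiation. Cxcl2, which attracts neutrophils, was higher by 2.86 in untreated MC38 and Cxcl14 lower by −1.22, and in irradiated MC38 Cxcl3 (−5.83) and Cxcl14 (−1.72) were lower.

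Over 29 class-by-group levels and 8399 genes, the genes whose pattern was most like each ligand were named by Pearson's r of log2(CPM + 1), as a description over points that share libraries. For Cxcl9 they were App (0.96), Slamf8 (0.95), Sdc3 (0.93), Dram1 (0.91) and B4galt6 (0.91). For Cxcl10 they were Ifi204 (0.92), Cd14 (0.91), Xaf1 (0.88), Zbp1 (0.88) and Ifitm3 (0.88). For Cxcl16 they were Dab2 (0.95), Ppfia4 (0.94), Pid1 (0.94), Aif1 (0.93) and Gatm (0.93). Among the ligands themselves r was 0.81 for Cxcl9 with Cxcl10, 0.82 for Cxcl9 with Cxcl16 and 0.73 for Cxcl10 with Cxcl16. Cxcl10 ranked 85 among the genes by likeness to Cxcl9.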

How the data were processed

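Per the labels, cells were sorted as live CD45+ and libraries were made with 10x 3′ v3.0 chemistry. The authors ran bcl2fastq 2.20.0 and Cell Ranger 3.1.0 on mm10 (submitters' processing notes) and deposited whole-number UMI counts per gene and barcode, 1 matrix per library. The members and lists were chosen with earlier results of these data known.

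A barcode shared between libraries of a tumor line was kept where it had most UMIs. Counts were scaled to 10000 per barcode, and 2000 variable genes, 30 principal components and 20 neighbors gave 27 Leiden clusters (scanpy 1.11.5, resolution 1), which were called a class where at least 3 of its markers were raised. A cluster with few UMIs and no marker among its leading 10 genes stayed unnamed, a rule written after the clusters were seen. Another rule written then set Ace, Ear2 and Adgre4, genes of patrolling monocytes, against a neutrophil name. By it a cluster led by Ace, Ear2 and Lyz2 stayed unnamed, whose 105 Panc02-SIY barcodes had Cxcl10 at 599 CPM. Scrublet called 0.352% of barcodes, too few to have worked, so doublets were kept and an alternative removed the 5% highest scores. UMI counts summed per library and class (at least 10 barcodes, 5 in dendritic cell subsets, at least 3 libraries per group) were tested with edgeR 4.0.16 (TMM, filterByExpr, robust quasi-likelihood test, all groups in 1 fit, no covariate) and Benjamini-Hochberg adjustment over all genes tested. Shares were tested with exact permutation tests over libraries (scipy 1.17.1). The fit was tested on counts simulated for the Panc02-SIY radiation comparison. Simulated 2-fold changes were recovered for 76% of genes over all barcodes and 72% in macrophage-like cells. In monocyte-like cells 58.9% and in dendritic cell-like cells 49% were recovered, so many changes of that size are missed there. Between 91 and 93.8% of 4-fold changes were recovered, and 6.52 to 9.73% of calls were false. Named genes were the 4 members, Cxcr3, Cxcr6 and Ifng, up to 4 passing genes per list and comparison with the largest change in macrophage-like cells, the receptors and partners, and the 5 genes most like each member. Motif letters were chosen after the promoter windows were read. Counting error and depth per library limit low levels, since 3 UMIs are the floor for a level of 0. DESeq2 1.42.0, other scalings and filters, other class rules, thinning and leaving out each library were tried as alternatives, and 5 of them were chosen after seeing the data, namely libraries with at least 4 dendritic cell-like barcodes, leaving out tumor or stromal cell-like and unnamed barcodes, all deposited barcodes for the other classes and for the lists, and leaving out each library in T cell-like, NK cell-like, CD8 T cell-like and DC2 cells.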

Additional observations from a re-analysis of the deposited data

Results flagged for a closer look

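Of 66 groups of 4 libraries checked for a library far from the other 3, 4 were flagged because the gap to the nearest library, as a share of the group's range, exceeded Dixon's 95% critical value, which chance does in about 1 group in 20. In monocyte-like cells of irradiated Panc02-SIY tumors, Cxcl9 in replicate 4 was 3674 CPM against 1532 to 1753 CPM in the others. In the same cells Cxcl16 in replicate 1 was 83.4 CPM against 221 to 245 CPM. In NK cell-like cells Cxcl9 was 4.07 CPM in untreated Panc02-SIY replicate 1 against 17.8 to 18.2 CPM, and 27.4 CPM in irradiated Panc02-SIY replicate 4 against 18.4 to 19.6 CPM.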

How the results depend on the processing

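Of 1714 log2 fold changes recomputed under an alternative, 1677 kept their call, among them 66 that changed sign while passing in neither setting, 22 lost and 15 gained a call, and 0 that passed reversed. Over all barcodes, 1 ligand passed for radiation in MC38 when only the groups compared were fitted, against 0. In Panc02-SIY 1 passed instead of 2 at an adjusted p below 0.05, with no filter on low counts, with only the groups compared, with thinned barcodes, with the cell filter, and without tumor or stromal cell-like and unnamed barcodes, Cxcl16 being lost each time. In macrophage-like cells of Panc02-SIY 1 ligand passed for radiation, against 0, with thinned barcodes and with a marker gate in place of clusters.

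In monocyte-like cells, comparisons that needed MC38 could be fitted only with all deposited barcodes or the marker gate. They gave 0 and 0 ligands for radiation in MC38, 1 and 2 between untreated tumors, 1 and 1 between irradiated tumors, and 0 and 0 for the difference of effects. In dendritic cell-like cells, all deposited barcodes and libraries with at least 4 barcodes gave 0 and 0 for radiation in MC38, 1 and 1 between irradiated tumors and 0 and 0 for the difference of effects, and no filter on low counts gave 2 for radiation in Panc02-SIY and 2 between untreated tumors.

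Without thinning and with thinning to 500 UMIs, 8 and 8 tests of detection shares passed, against 0. Of class share tests 18 passed with all deposited barcodes against 11, and the higher share of tumor or stromal cell-like barcodes in MC38 (7.09 and 5.11 percentage points) turned to −1.55 and −1.75 percentage points. The cause was not tested.

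Leaving out 1 library gave 1 to 2 ligands over all barcodes for radiation in Panc02-SIY (1 without any untreated MC38 replicate, replicate 1, 3 or 4 of irradiated MC38, 3 or 4 of irradiated Panc02-SIY, or 1 or 3 of untreated Panc02-SIY). It gave 0 to 1 in macrophage-like cells for radiation in Panc02-SIY (1 without untreated Panc02-SIY replicate 1) and 1 to 2 in dendritic cell-like cells between untreated tumors (2 without untreated MC38 replicate 3, with Cxcl10 at 1.70). It gave 0 to 13 class share tests, the 6 libraries behind the 0 being named in the report.

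Replicate numbers were shared between groups. Between the Panc02-SIY groups libraries 1, 3 and 4 deviated with their own number (correlations of 0.40, 0.32 and 0.75, each the highest for that library) and library 2 did not (−0.16), and between the MC38 groups correlations were −0.04 to 0.08. The labels tie no number to a shared animal or batch, so the libraries were not treated as paired, although 3 of 4 Panc02-SIY numbers hint at it. A fit with the replicate number as a block changed no count of ligands that passed, and gave 1.44 (adjusted p = 0.019) for Cxcl10 over all barcodes in Panc02-SIY. Levels rest on as few as 5 barcodes in dendritic cell subsets, and in MC38 on as few as 10 in NK cell-like and 12 in T cell-like cells.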
